A study of Mus musculus with 9 samples.

Results

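The regions described here are places where TGIF1 binding appeared after induction directly on top of MEIS1 sites that were present with and without induction. Peaks of 8 lists were merged wherever they overlapped by 1 bp or more, which gave 60709 merged regions. A region was taken when every induced TGIF1 library and each of the 4 MEIS1 libraries had a peak in it, no TGIF1 EtOH library did, and the summit (the position of highest signal in a peak) of TGIF1 4-OHT replicate 2 lay within 50 bp of that of MEIS1 4-OHT replicate 2. This left 2759 regions, 4.54% of all merged regions, which are called centred regions below. Without TGIF1 4-OHT replicate 1, whose list is the shorter of the induced pair, the rule took 4889. The peak pattern and this distance chose the regions and are not findings.

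The data are chromatin immunoprecipitation with sequencing from mouse cells. Bone marrow cells positive for c-kit from C57BL/6 mice had been transformed with MLL-AF9, a fusion oncogene of acute leukaemia, and then transduced with pMIG-TGIF1-ER, a retroviral vector for TGIF1 joined to the hormone-binding part of the estrogen receptor. Every group carried both constructs. The induced groups received 4-hydroxytamoxifen (4-OHT) for 20 h, and the other groups received ethanol (EtOH). The 4 groups were TGIF1 with 4-OHT, TGIF1 with EtOH, MEIS1 with 4-OHT and MEIS1 with EtOH, each with 2 libraries; an IgG sample was not analysed here. Cells without TGIF1-ER were not analysed with 4-OHT, so an effect of the compound and an effect of active TGIF1 cannot be told apart. Whether replicates were separate cultures is not in the labels, so the spread between them may be technical.

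TGIF1 and MEIS1 both belong to the TALE class of homeodomain proteins, which share an extended loop in the DNA-binding domain and recognise closely related DNA cores. MEIS1 acts with HOX and PBX proteins, keeps blood stem and progenitor cells in an immature state, and is a required partner in leukaemias driven by MLL fusions. TGIF1 is a repressor that recruits corepressors and dampens transcription by SMAD proteins and by retinoid receptors. A fusion to the estrogen receptor stays largely outside the nucleus until 4-OHT is added. Peaks come from a population of cells, so nearby summits do not show that both proteins sat on the same DNA molecule.

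The lists differed in size: 12141 and 26932 peaks for TGIF1 4-OHT replicates 1 and 2, and 2764 and 592 for TGIF1 EtOH. MEIS1 had 21173 and 48829 peaks with 4-OHT, and 26254 and 43564 with EtOH. Read depth and peak heights were not in the lists. The TGIF1 EtOH lists are short, so a site without a peak in them may still have carried some TGIF1 before induction. Cell identity could not be checked against marker genes from peak positions.

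TGIF1 and MEIS1 summits lay close together at the centred regions, also in libraries that the distance limit did not use. The rule required a peak in those libraries too, so they took part in choosing the regions. The smallest TGIF1 to MEIS1 distance in the pair used for the choice had a median of 12 bp (quartiles 5 and 23 bp), and 64 regions had a distance of 0 bp. TGIF1 4-OHT replicate 1 took no part in the distance limit. Its summit lay at a median of 21 bp from MEIS1 4-OHT replicate 1, 21 bp from MEIS1 EtOH replicate 1 and 17 bp from MEIS1 EtOH replicate 2. Over all merged regions with both peaks, the medians in these pairs were 28, 28 and 27 bp. In regions with the same placement and a TGIF1 peak also under EtOH, they were 14, 15 and 12 bp. Sonicated fragments were near 300 bp on average per the labels, so these distances are small beside the length of the DNA pieces sequenced.

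Of the 2759 centred regions, 79.5% (exact 95% interval 78.0 to 81.0%) had TGIF1 4-OHT replicate 1 and MEIS1 4-OHT replicate 1 summits within 50 bp. The same limit was met at 65.4% of all 5817 merged regions with both peaks. Against MEIS1 EtOH replicate 1 the share was 81.6% in centred regions and 66.7% in all merged regions with both peaks. Against MEIS1 EtOH replicate 2 it was 83.5% in centred regions and 64.9% in all merged regions. The 891 regions with the same placement and a TGIF1 peak also under EtOH had larger shares, 85.9%, 87.5% and 89.6% in the same 3 pairs. The mean of the 3 shares in centred regions was 81.5 ± 2.01% (SD over 3 pairs that share the TGIF1 library). MEIS1 summits of EtOH cells were met by induced TGIF1 in no smaller a share: the EtOH shares, 81.6 and 83.5%, were not below the 79.5% with 4-OHT. These pairs measure the same sites again, and the values are given as a description with no test.

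Pairs that include 1 library of the limit came closer to the fixed 100%. TGIF1 4-OHT replicate 1 and MEIS1 4-OHT replicate 2 met it at 87.5% of centred regions, beside 64.5% of all merged regions with both peaks. TGIF1 4-OHT replicate 2 met it at 87.4% with MEIS1 4-OHT replicate 1, beside 64.4% of all merged regions. With MEIS1 EtOH replicate 1 it was 88.1% beside 64.9%, and with MEIS1 EtOH replicate 2 it was 92.6% beside 63.5%. In the pair that chose the regions, 63.4% of all 19112 merged regions with both peaks met the limit.

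All 3 pairs free of the libraries of the limit met it at 1933 centred regions (70.1%, exact 95% interval 68.3 to 71.8%). The share was 76.9% of the 891 centred regions with a TGIF1 peak also under EtOH, and 15.7% of regions with separated summits. The combined counts and spans given here were not made over all merged regions. There, each of these 3 pairs alone met the limit at 64.9 to 66.7% of regions with both peaks. Another 377 centred regions met it in 2 pairs and 196 in 1 pair. In 253 regions (9.17%) none of the 3 did. In 1792 regions (65.0%) all 8 TGIF1 to MEIS1 distances, over every induced TGIF1 and every MEIS1 library, were within 50 bp, against 71.6% of those with a TGIF1 EtOH peak. This count and the span of summits include the pair that the rule fixed. Taking from each library the summit nearest to the pair that chose the region, the 6 summits spanned a median of 42 bp (quartiles 29 and 71.5 bp). The span was at most 50 bp in 1665 regions (60.3%), at most 100 bp in 2296 (83.2%) and over 200 bp in 289 (10.5%).

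**Figure D1:**
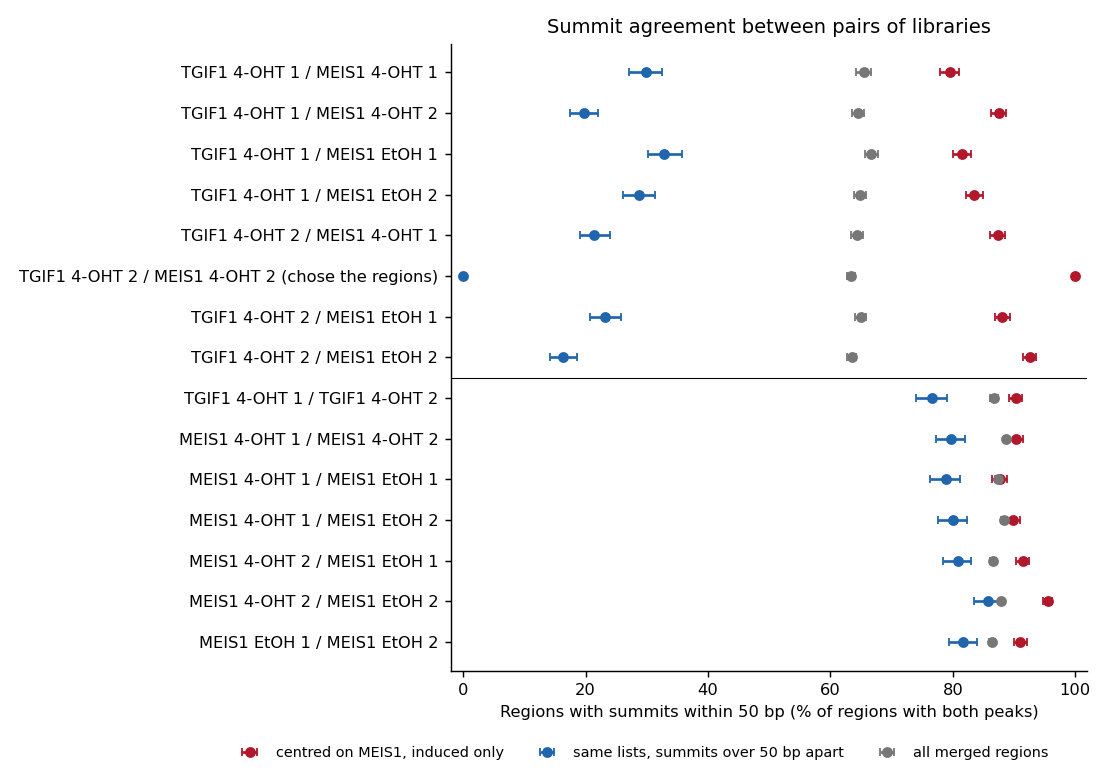
Share of regions whose summits lay within 50 bp in each of the 15 pairs of 6 libraries (x axis, percent; bars, exact 95% intervals over regions), for centred regions (red), regions with the same lists and summits over 50 bp apart (blue) and all merged regions with both peaks (grey). Above the line, in TGIF1 to MEIS1 pairs, red lies at 79.5% or more and blue at 32.9% or less. Below it, within 1 protein, red lies 8.84 to 13.7 points above blue.

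The limit of 50 bp cuts through a continuous range. Of 3893 regions with the same peak pattern at any distance, 2759 (70.9%, exact 95% interval 69.4 to 72.3%) were centred and 1134 had summits farther apart. Distances of 0 to 10 bp were found at 1242 regions, 11 to 25 bp at 949, 26 to 50 bp at 568, 51 to 100 bp at 351 and over 100 bp at 783. In TGIF1 4-OHT replicate 1 and MEIS1 4-OHT replicate 1, the share within 50 bp over these classes was 83.3%, 80.4%, 69.9%, 47.0% and 22.1%. Within the centred regions the 2 distances were weakly related (Spearman's rho 0.14 over 2759 regions, replicate 1 pair against replicate 2 pair, a description). The limit cuts the replicate 2 distance at 50 bp, and a narrowed range can lower rho. Over all the classes, the replicate 1 median distance rose from 18 bp at 0 to 10 bp to 169 bp at over 100 bp. Just inside the limit, at 49 to 50 bp, 19 of 29 regions were within 50 bp in the replicate 1 pair, and just outside, at 51 to 52 bp, 11 of 18 were.

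By the rule for named regions, the leading region at exactly 50 bp was chr2:129421068-129422266 (mm9), where the mean distance over the 3 other pairs was 9 bp. The leading region at 51 bp was chr7:152203722-152204732, where TGIF1 4-OHT replicate 1 lay 411 bp from MEIS1 4-OHT replicate 1 but 6 bp from MEIS1 EtOH replicate 2. At the second of these the distance depended on the library.

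**Figure D2:**
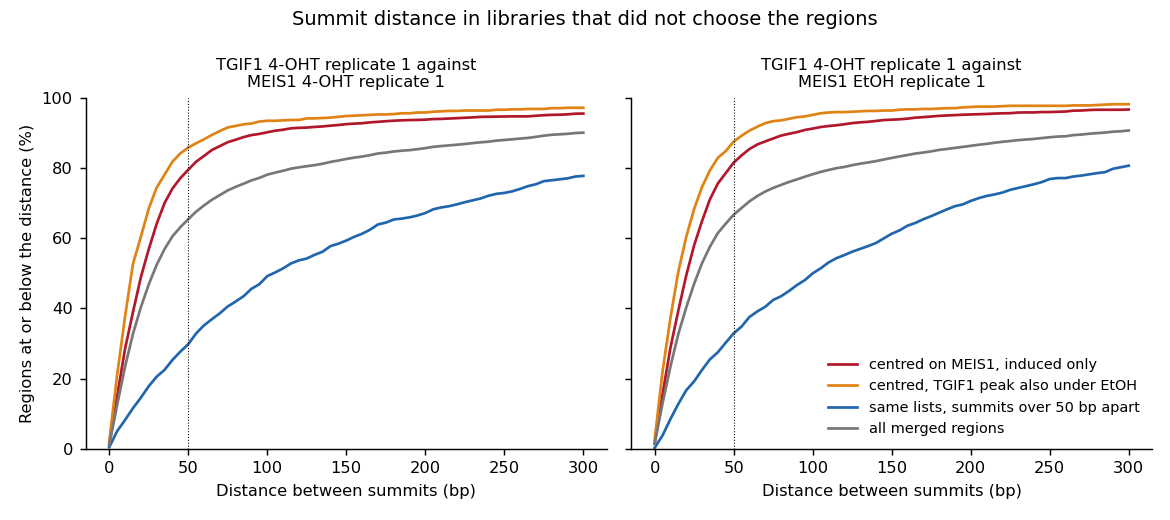
Cumulative share of regions (y axis, percent) by distance between the TGIF1 4-OHT replicate 1 summit and that of MEIS1 4-OHT replicate 1 (left) or MEIS1 EtOH replicate 1 (right) in bp. The dotted line marks 50 bp. The rule required peaks in these libraries but did not use these distances. Centred regions (red) cross it at 79.5% (left) and 81.6% (right), those with a TGIF1 peak also under EtOH (orange) at 85.9% and 87.5%, and all merged regions with both peaks (grey) at 65.4% and 66.7%; separated regions (blue) lie lowest.

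Regions with the same 6 peaks but separated summits were less often close in the other libraries, though many came close in some. None of the 3 pairs of TGIF1 4-OHT replicate 1 free of the limit was within 50 bp at 601 of 1134 (53.0%), and all 3 were at 178 (15.7%). TGIF1 4-OHT replicate 1 and MEIS1 4-OHT replicate 1 were within 50 bp at 29.8% of them (exact 95% interval 27.2 to 32.6%), with a median distance of 104 bp, against 79.5% and 21 bp in centred regions. Replicates of each protein were within 50 bp at most regions of both sets, though less often at separated ones. TGIF1 4-OHT replicates 1 and 2 were within 50 bp at 90.3% of centred regions and 76.5% of separated ones, beside 86.7% of all merged regions with both peaks. MEIS1 4-OHT replicates were within 50 bp at 90.3% of centred and 79.7% of separated regions, beside 88.8% of all merged regions, and MEIS1 EtOH replicates at 91.0% of centred and 81.7% of separated regions, beside 86.4% of all merged regions. The gap between the sets was therefore 49.7 percentage points between proteins in the replicate 1 pair, and 13.7 for TGIF1 against itself. The same sites chosen on the distance were measured in both sets, so no test was made.

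At the centred regions, MEIS1 summits lay about as far apart across treatments as between replicates. The rule required MEIS1 peaks of both treatments in the same merged region, and the smallest distance in it was taken. Larger shifts were thus partly left out beforehand, and the values are a description. Across treatments, each 4-OHT library set against each EtOH library, the median distance was 9 to 16 bp (mean 12.8 ± 2.87 bp, SD over 4 pairs that share libraries). Between replicates of 1 treatment it was 12 bp with 4-OHT and 13 bp with EtOH. The difference of the means, 0.25 bp, was smaller than the spread between pairs. Stable MEIS1 regions with no TGIF1 peak in any list had 8 to 15 bp between treatments, and 12 bp with 4-OHT and 13 bp with EtOH between replicates. Pairs of MEIS1 libraries across treatments were within 50 bp at 87.7 to 95.5% of centred regions, beside 86.6% to 88.4% of all merged regions with both peaks. The highest, 95.5%, was for the replicate 2 libraries, where 87.9% of all merged regions met the limit, and the lowest, 87.7%, for the replicate 1 libraries, where 87.4% did.

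TGIF1 summits fell on either side of MEIS1 in even numbers. In the replicate 1 libraries with 4-OHT, TGIF1 lay at the higher coordinate in 1353 centred regions, at the lower in 1372 and at the same base in 34, with a median signed distance of 0 bp. Counts in the other pairs examined were alike, for example 1345, 1372 and 42 against MEIS1 EtOH replicate 1. The strand of any shared DNA core is unknown here, so this says nothing of an order on the motif. The TGIF1 4-OHT replicate 1 summit lay inside the MEIS1 4-OHT replicate 1 peak in 95.3% of regions. Its whole peak lay inside that MEIS1 peak in 1109 regions (40.2%), and enclosed it in 430 (15.6%). These shares were not made over all merged regions or the compared sets. Those MEIS1 peaks had a median length of 477 bp, long beside the 50 bp limit, so summits chosen to lie close tend to fall inside them. Summits stood near the middle of their peaks, at a median of 49.5 to 49.9% of peak length in the 6 libraries. The whole lists had medians of 49.8 to 50%, so this is not particular to the centred regions.

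Peak length is the only size the lists give, and it depends on read depth. Each length was therefore ranked within its list, from 0 for the shortest to 100% for the longest, and the longest peak of a library was taken where a region held several. At the centred regions, peaks were of about ordinary length in TGIF1 4-OHT replicate 1 and of more than ordinary length in the other 5 libraries. The rule required a peak in each of these lists, which differ in size, so the ranks are not independent of the choice. They are given as a description. Median ranks were 45.8% and 59.5% in TGIF1 4-OHT replicates 1 and 2, 61.7% and 69.1% in MEIS1 4-OHT, and 66.9% and 70.1% in MEIS1 EtOH. The median lengths behind them were 426 and 627 bp for TGIF1 4-OHT, 477 and 671 bp for MEIS1 4-OHT, and 415 and 751 bp for MEIS1 EtOH. The lists as a whole had medians of 438 and 567 bp for TGIF1 4-OHT, 442 and 571 bp for MEIS1 4-OHT, and 362 and 633 bp for MEIS1 EtOH. In TGIF1 4-OHT replicate 1, the centred regions thus lay slightly under the middle of the list; in the other 5 libraries they lay above it.

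Between treatments, the length rank of MEIS1 peaks at the centred regions differed by less than the SD of the 4-OHT libraries. The rule required a MEIS1 peak in all 4 lists. Sites without a called MEIS1 peak in either treatment were therefore left out beforehand. The mean of the library medians was 65.4 ± 5.27% with 4-OHT and 68.5 ± 2.24% with EtOH (SD, n = 2 each), a difference of -3.09 percentage points. A two-sided exact permutation test over the 4 libraries gave p = 0.667. With 2 against 2 libraries it cannot give less than 0.333, so it cannot decide whether the rank changed. Without MEIS1 4-OHT replicate 1 the difference turned to 1.67 points, and without MEIS1 4-OHT replicate 2 it was -5.99 points. It was -5.03 points without MEIS1 EtOH replicate 1 and -1.38 points without MEIS1 EtOH replicate 2. In stable MEIS1 regions without TGIF1 the difference was 1.80 points (53.0 ± 4.11% with 4-OHT, 51.2 ± 2.90% with EtOH; SD, n = 2 each; two-sided exact permutation p = 0.667).

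Peaks ranked lower in length at centred regions than at regions with the same lists and separated summits, in 6 of 6 libraries. The mean of the library medians was 62.2% in centred and 76.0% in separated regions, a difference of -13.8 ± 2.11 points (SD, n = 6 libraries; range -16.7 to -10.3). Peak length limits how far apart summits can lie, and length ranks correlate between libraries, so length is tied to the distance that split these regions and no test is given. In the 4 libraries that did not set the limit the difference was -13.2 points. With the longer 50% of each list it was -4.40 points.

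The longest peaks were at the widest separation. Among centred regions, those at 0 to 10 bp had median ranks of 48.0% in TGIF1 4-OHT replicate 1 and 61.8% in MEIS1 4-OHT replicate 1. Those at 11 to 25 bp had 43.0% and 60.0%, and those at 26 to 50 bp had 46.2% and 65.7%. Regions at 51 to 100 bp had 47.7% and 68.0%, and regions over 100 bp apart had 61.2% and 79.0%. These classes were set by the distance and are described without a test.

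TGIF1 peaks also ranked lower at centred regions than at the 891 regions with the same placement and a TGIF1 peak under EtOH as well. Centred regions had median ranks of 45.8% and 59.5% in TGIF1 4-OHT replicates 1 and 2, against 76.5% and 80.8% in those regions. The difference averaged -26.0 points in the 2 TGIF1 libraries and -9.55 points in the 4 MEIS1 libraries, lower in 6 of 6. The rule requires that no TGIF1 EtOH peak be called, so TGIF1 size is not independent of it and no test was made. In the pair of the limit, summits were within 50 bp at 70.9% (69.4 to 72.3%) of regions with the 6 peaks and no TGIF1 EtOH peak, beside 72.4% (exact 95% interval 69.8 to 74.9%) of the 1230 with one.

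MEIS1 peaks ranked higher at centred regions than at the 7245 stable MEIS1 regions with no TGIF1 peak in any list. In MEIS1 4-OHT replicates 1 and 2, centred regions had 61.7% and 69.1%, against 50.1% and 55.9% without TGIF1. In MEIS1 EtOH they had 66.9% and 70.1%, against 49.1% and 53.3% without TGIF1. The difference was 14.8 ± 2.93 points (SD, n = 4 libraries), higher in 4 of 4. The exact sign-flip permutation p was 0.125, the smallest 4 libraries allow, so it could not pass 0.05. Nor can this test decide the question, because a longer MEIS1 peak has more room to overlap a TGIF1 peak. The longest peak was also taken where a region held several. A library had 2 or more MEIS1 peaks in 3.6 to 8.1% of centred regions, against 0.44 to 2.2% of those without TGIF1. The difference in rank was seen in the MEIS1 EtOH libraries as well as in those with 4-OHT.

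**Figure D3:**
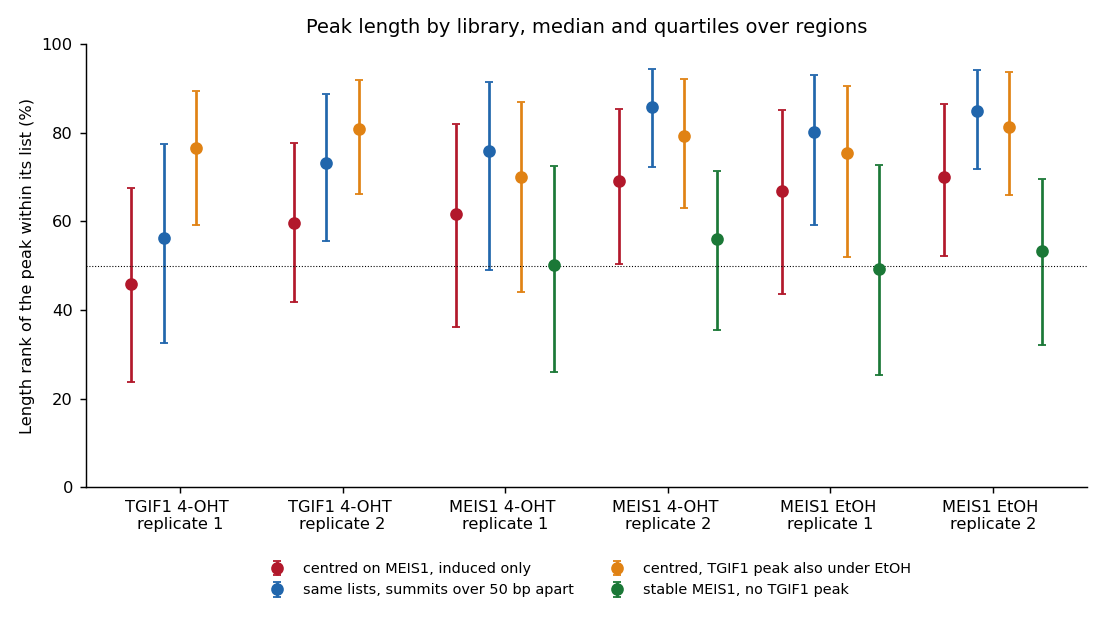
Rank of peak length within its list (y axis, percent) in 6 libraries (x axis), as median and quartiles over regions, for centred regions (red), the same lists with summits over 50 bp apart (blue), centred regions with a TGIF1 peak also under EtOH (orange) and stable MEIS1 regions without TGIF1 (green). Red lies under blue and orange in all 6 libraries and over green in the 4 MEIS1 libraries.

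A single peak in each of the 6 libraries was found at 2333 of 2759 (84.6%, exact 95% interval 83.2 to 85.9%), against 72.7% of separated regions (exact 95% interval 70.0 to 75.2%). Merged length ran from 450 to 5663 bp with a median of 816 bp. The median was 1078 bp for separated regions, 1044 bp for centred regions with a TGIF1 EtOH peak and 614 bp for all merged regions. All merged regions include those with peaks of fewer lists, so a greater length than theirs follows in part from the rule. Regions over 2000 bp made up 95 of the centred ones (3.44%), against 6.70% of separated regions and 8.75% of centred regions with a TGIF1 EtOH peak. The share was 0.345% of stable MEIS1 regions without TGIF1 and 1.30% of all merged regions. Peak length ranks repeated between libraries: Spearman's rho over the 2759 regions was 0.60 between the TGIF1 4-OHT replicates, 0.47 between the MEIS1 4-OHT replicates and 0.48 between the MEIS1 EtOH replicates. Between proteins it was 0.34 for replicate 1 and 0.60 for replicate 2 with 4-OHT. Between equal replicate numbers of the treatments, MEIS1 4-OHT against MEIS1 EtOH, it was 0.55 for replicate 1 and 0.79 for replicate 2, and between unequal numbers it was 0.45 and 0.50. These correlations run across regions, which are not independent, and share how each list was called.

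Named regions were the 10 with the highest mean length rank over the 6 libraries and the 5 with the smallest mean distance over the 3 pairs of TGIF1 4-OHT replicate 1. All coordinates are mm9; genes at these places were not named because an annotation of that build was not used here, and for the same reason no DNA sequence is shown. The region with the highest mean rank was chr1:87504348-87508866, 4519 bp long. Its TGIF1 4-OHT peaks were 1009 and 3215 bp in replicates 1 and 2, its MEIS1 4-OHT peaks 3284 and 4376 bp, and its MEIS1 EtOH peaks 824 and 4519 bp. Replicate 2 was longer in each group, and the MEIS1 EtOH replicate 2 summit stood at -3392.5 bp from the median of the 6, far from the other 5.

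The second was chr3:107820123-107823872, 3750 bp long with 2 TGIF1 peaks in each induced library. TGIF1 and MEIS1 4-OHT replicate 2 summits were 1 bp apart there, and the mean distance in the 3 pairs of TGIF1 4-OHT replicate 1 was 7.33 bp. These distances rested on different summits: those of TGIF1 4-OHT replicates 1 and 2 were 284 bp apart at their closest, and the 6 summits spanned 290 bp. The third, chr17:28992231-28993970, was 17 bp apart in the pair of the limit, but TGIF1 4-OHT replicate 1 lay 402 to 415 bp from the 3 MEIS1 libraries. At chr13:59870471-59872209, MEIS1 4-OHT replicate 1 and MEIS1 EtOH replicate 1 both lay about 400 bp from TGIF1 4-OHT replicate 1 (401 and 433 bp), while MEIS1 EtOH replicate 2 lay 12 bp away. In both, summits of 1 or 2 libraries lay far from the rest.

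A compact example among the 10 was chr3:88305932-88307881, where the 6 summits spanned 29 bp. Its peaks were 1427 and 1841 bp for TGIF1 4-OHT, 772 and 1477 bp for MEIS1 4-OHT, and 834 and 1563 bp for MEIS1 EtOH. The others lay at chr11:3022646-3024920, chr1:85093559-85097402, chr3:95496461-95498819, chr3:85690079-85692061 and chr7:7250855-7253676, with spans of 71, 40, 306, 43 and 61 bp. Around the chr1 regions at 87504348 and 85093559, peaks of 3 kb or more within 500 kb to either side occurred in 5 and 4 of the 8 lists, while the other 8 had them in at most 1. Over all centred regions, 21 (0.761%) had such long peaks nearby in 3 or more lists. This count was not made over all merged regions, so whether the share is high or low is not known.

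The closest region was chr19:61308011-61308661, 651 bp long. TGIF1 4-OHT replicate 1 had its summit on the same base as MEIS1 4-OHT replicate 1 and both MEIS1 EtOH replicates, and the 6 summits spanned 8 bp. Its peaks were 378 and 441 bp for TGIF1 4-OHT, 567 and 562 bp for MEIS1 4-OHT, and 345 and 605 bp for MEIS1 EtOH. The next were chr15:102290759-102292067, chr8:92947079-92947735, chr9:64411899-64412738 and chr3:60416988-60417692, with spans of 14, 17, 12 and 4 bp. All 5 had a single peak in each library, and their mean length ranks ran from 41.8 to 82.5%, so they were not among the 10 of highest rank.

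**Figure D4:**
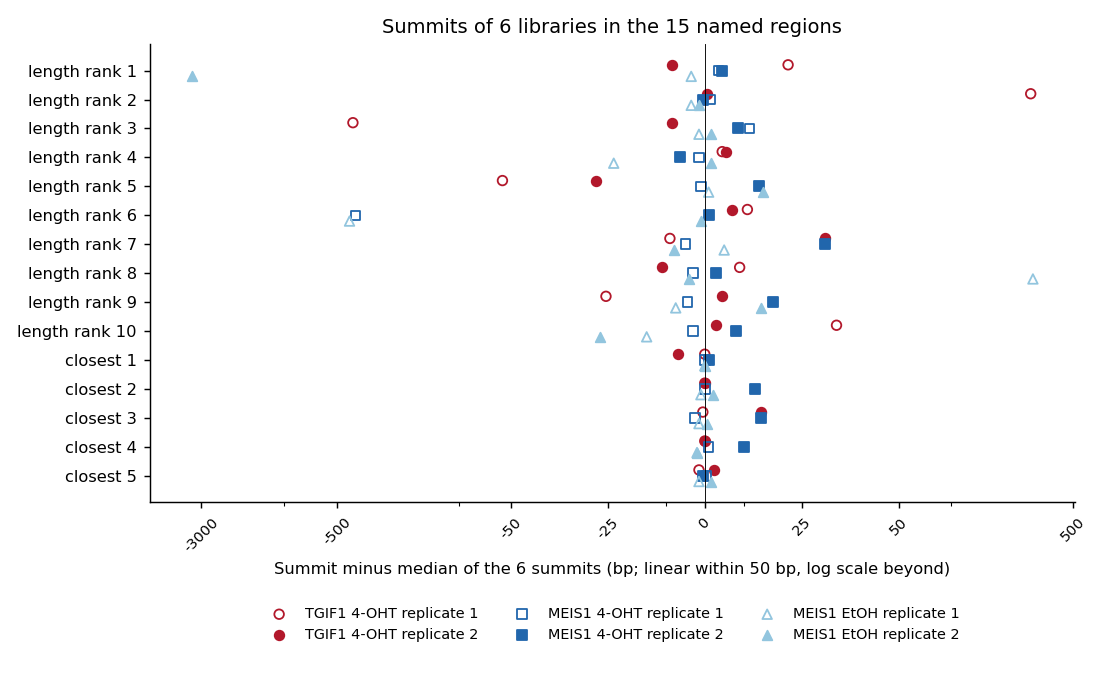
Position of the summit in 6 libraries relative to the median of the 6 (x axis, bp; linear within 50 bp and logarithmic beyond) in the 10 centred regions of highest mean length rank (rows "length rank") and the 5 closest, with TGIF1 4-OHT as red circles, MEIS1 4-OHT as dark squares and MEIS1 EtOH as light triangles, replicate 1 open and replicate 2 filled. In the 5 closest regions the summits span 4 to 17 bp, and in 5 of the 10 others at least 1 summit lies far away.

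Centred regions took similar shares of the stable MEIS1 regions on the autosomes and a smaller one on chromosome X. They made up 17.4% of the 15835 stable MEIS1 regions (exact 95% interval 16.8 to 18.0%). By autosome this ran from 15.4% on chromosome 17 to 20.2% on chromosome 19. On chromosome X it was 9 of 151 (5.96%, exact 95% interval 2.76 to 11.0%). These intervals cover counting over regions of the same libraries, which are not independent, and do not measure the spread between libraries. Separated regions were also few on X, 4 of 151 (2.65%), against 7.16% of all stable MEIS1 regions. Of the 13 regions on X with the same lists, 69.2% were centred, beside 70.9% on all chromosomes. The lists held few peaks on X, where 1.32% of merged regions and 0.954% of stable MEIS1 regions lay. No test across chromosomes was made.

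**Figure D5:**
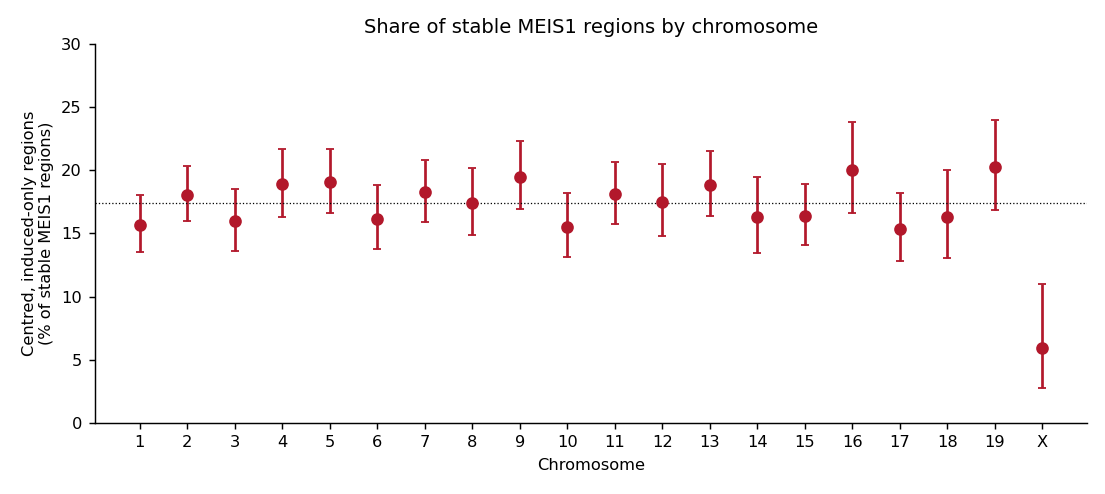
Centred regions as a share of stable MEIS1 regions (y axis, percent) on each chromosome (x axis), with exact 95% intervals over regions; the dotted line is the 17.4% of all chromosomes together. The autosomes lie between 15.4 and 20.2%, and X lies at 5.96%.

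Centred regions had stable MEIS1 neighbours somewhat more often than MEIS1 regions without TGIF1. Another stable MEIS1 region lay within 10 kb of 37.3% of centred regions (exact 95% interval 35.5 to 39.1%), against 38.4% of separated regions and 31.5% (30.5 to 32.6%) of stable MEIS1 regions without TGIF1. A region with a TGIF1 EtOH peak lay within 10 kb of 235 centred regions (8.52%, exact 95% interval 7.50 to 9.62%), against 9.08% of separated regions, 9.54% of centred regions with a TGIF1 EtOH peak and 5.04% (4.55 to 5.57%) of stable MEIS1 regions without TGIF1. The nearest other centred region was within 10 kb for 289 (10.5%), against 10.3% of separated regions and 10.2% of centred regions with a TGIF1 EtOH peak. For stable MEIS1 regions without TGIF1, a centred region was within 10 kb of 6.79% (6.22 to 7.39%). The median gap from a centred region to the nearest other one was 117 kb. These shares cover counting over regions of these libraries and were not tested.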

How the data were processed

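Peak lists of 8 ChIP-seq libraries were analysed. Per the submitters' processing notes, Bowtie 0.12.7 and the build mm9 were used; per the file headers, MACS 1.4.2 made the list of MEIS1 4-OHT replicate 2. Threshold, control library and filters: not given in the sources used here. The deposited lists, 1 per library, hold chromosome, start, end, length and summit in bp, and no other score or count, so depth is unknown and length ranks stand in for peak size. Summit positions are start plus summit minus 1. Distances between 2 libraries are the smallest within a merged region. Regions and lists were chosen with earlier results of these data known. Tests were exact permutations over libraries, with a threshold of 0.05; the planned test of peak length against separated regions is not given, because the rule's distance and peak length are tied, which was decided after its value was seen, and the test against stable MEIS1 regions without TGIF1 was added after seeing the data; intervals are exact (Clopper-Pearson, 95%) and cover counting over regions only. Named regions followed a rule on length rank and distance. The planned motif, start site and gene list steps need a genome of the mm9 build and were not run. Alternatives were other distance limits, a stricter overlap, the longer 50% of each list, each library left out, lengths in bp, a replicate block and, chosen after seeing the data, 1 peak per list. Merging gave 60709 regions, as bedtools did; on simulated data, 740 of 740 planted regions were recovered. Python 3.11.15, numpy 2.4.6, pandas 2.3.3 and scipy 1.17.1 were used.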

Additional observations from a re-analysis of the deposited data

How the results depend on the processing

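The number of centred regions was 829 with the longer 50% of each list and 4889 without TGIF1 4-OHT replicate 1, and 2666 to 4889 over the 8 libraries left out in turn. Without TGIF1 EtOH replicate 1, the longer of those lists, it was 3493. Taking the limit from the replicate 1 pair gave 2532, of which 2194 were shared, 79.5% of the centred regions and 86.7% of that choice. The mean share within 50 bp in the 3 other pairs was 83.9% with a limit of 25 bp, 77.8% with 100 bp and 74.9% with the longer 50% of each list; leaving out single libraries gave 80.9 to 82.9%. Without either TGIF1 4-OHT library it could not be computed free of the distance limit. The MEIS1 length difference between treatments changed sign with the libraries used, from -5.99 to 1.67 points with 1 left out. With a replicate block it was -3.09 points (exact sign-flip permutation p = 0.5, the smallest 2 pairs allow); the labels do not say that equal numbers pair libraries. MEIS1 length ranks correlated more between equal numbers across treatments (Spearman's rho 0.55 and 0.79) than between unequal numbers (0.45 and 0.50) or between replicates of 1 treatment (0.47 and 0.48), over regions of lists that differ in length, and whether this reflects pairing was not tested. The length difference to separated regions was below 0 in all 14 alternatives, but its size was not stable: -4.40 points with the longer 50% of each list, -9.72 with a limit of 25 bp, -17.4 with 100 bp, and -14.6 to -13.2 without single libraries. The difference between MEIS1 summit distances across and within treatments ranged from -2.5 to 2.5 bp without single libraries. Absence from the TGIF1 EtOH lists is limited by their unknown depth.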
